A study of Caenorhabditis elegans with 32 samples.

Results

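The spermatogenesis genes of Caenorhabditis elegans that carry the names spe (defective spermatogenesis) and fer (fertilization defective) were examined in whole worms given the NAD+ precursor nicotinamide riboside (NR). Every gene with a WormBase symbol made of spe or fer, a hyphen and a number was taken, which gave 35 of the 25497 genes on the array (34 spe genes and fer-1), and each gene was read from its brightest probe. The study asked how NR and the loss of csa-1 or csb-1, the worm orthologues of the human Cockayne syndrome genes CSA and CSB, alter gene expression.

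The groups given 500 µM NR from the L4 larval stage were csa-1(tm4539), csb-1(ok2335), their combination in one strain, csa-1(tm4539);csb-1(ok2335), called the double mutant below, and the Bristol wild type N2. The same 4 strains given water served as vehicle groups. All worms were kept at 25 °C and collected as whole bodies at day 7 of adulthood, with 4 single-colour arrays for each of the 8 groups. The study's methods speak of 3 biological replicates per group, and of fluorodeoxyuridine in worm cultures unless otherwise noted. The p-values rest on the spread between the 4 arrays of a group, pooled over all 8 groups. With 3 biological replicates named for 4 arrays, part of this spread may be technical. Each group lay on a slide of its own, so slide and group cannot be told apart in any comparison below.

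C. elegans hermaphrodites make sperm in the last larval stage and then switch the germline to oocytes, so adults carry a store of sperm that was made earlier. The spe and fer genes were found as mutants whose sperm fail: in the spermatocyte their products build the fibrous body and the membranous organelle, in the spermatid they turn on crawling (activation), and at the egg surface or inside the egg they act in fertilization and the first steps of the embryo. Most are known for transcription in spermatocytes, before the sperm cell falls silent.

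Values are Z-scores: the log2 intensity of a probe minus the mean of its array, divided by the standard deviation (SD) of its array, so 0 is the average gene spot. A difference in Z-score was put on a log2 scale by a factor of 3.74, which is what 1 SD amounts to on the average array, and is called a log2 change. A gene passed when its limma p, adjusted over all 25497 genes (Benjamini-Hochberg), did not exceed 0.05. A stricter call followed the study's methods, where the Z-ratio (the difference divided by the SD of all such differences) must also reach 1.5 in either direction and the gene must be brighter than the array average.

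Several arrays stood apart before any comparison. The share of gene probes well above background ran between 65.5% and 78.4% on NR arrays (median 72.3%) and between 46.9% and 78.3% on vehicle arrays (median 72.2%). The SD of log2 intensity was under 3.5 on 5 arrays, all of vehicle groups: csa-1 replicate 2, csb-1 replicate 4, double mutant replicate 1 and N2 replicates 1 and 2. On 9 arrays more than 1000 probes shared one lowest value. Of the 35 genes, 14 lay at this floor on csb-1 vehicle replicate 4, 15 on N2 vehicle replicate 1 and 5 on N2 vehicle replicate 2, whereas on NR arrays only spe-49 did, on 2 arrays. The array labelled csa-1 NR replicate 4 went against its label on the csb-1 probe that was low in csb-1 strains. This probe had a Z-score of -1.22 there, against 0.00, -0.05 and -0.02 on the other csa-1 NR arrays. On csb-1 NR arrays it had -0.83, -0.88, -1.35 and -1.36. The other csb-1 probes were not low in csb-1 strains or on this array. The csa-1 probe of this array had 0.21, against -0.33, -0.26 and -0.29. On vehicle, however, the csa-1 probe overlapped between csa-1 (-0.62 to -0.01) and N2 (-0.44 to 0.00). Some calls that were lost without these arrays are named beside the results below, but not all. Among NR calls, those of spe-18 and spe-27 in csa-1 were also lost without csa-1 vehicle replicate 2. That of spe-57 in the double mutant was lost without double mutant vehicle replicate 1, and that of spe-55 in N2 without N2 vehicle replicate 1. With 4 arrays per group the number of arrays limits the precision.

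The spe and fer genes were mostly dim in these day 7 adults. Their mean Z-scores over the 32 arrays ran from -1.04 for spe-49 to 0.96 for spe-48, with a median of -0.43, and 11 of the 35 lay above 0, against 47.4% of all genes. Of the 35, 10 were well above background on all 32 arrays, 31 on at least 16, and spe-8, spe-29, spe-42 and spe-49 on fewer than 16. Markers of the adult germline were well measured in the same RNA: all 14 oocyte genes and all 12 general germline genes were well above background on at least 16 arrays. Of 7 male neuron genes, 4 reached that level and 1 was not well above background on any array. Probe brightness depends on the probe, so no gene's level is set against another's beyond this description. Of the 35 genes, 14 lay on chromosome I, and the share of all genes on that chromosome was not set beside this count.

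On NR, most spe and fer genes lay higher than on vehicle. Averaged over the 4 strains, a comparison chosen after the values were seen, 31 of the 35 genes had a positive log2 change and the median was 0.41, against 0.00 over all genes. With the adjusted p, spe-36 and spe-47 fell and the other 18 of the 20 members that passed rose, where 13.3% of all genes passed (8.51% upward and 4.76% downward). By the criteria of the methods, which most of these dim genes could not meet, spe-18 and spe-46 were called, and 2.7% of all genes were. spe-46 was read from the brightest of 3 probes, and its adjusted p no longer passed under 16 of 40 alternatives. In whole worms, a change in the number of sperm or spermatocytes and a change in RNA per cell cannot be told apart. Without the 5 arrays of low spread, an alternative chosen after seeing the data, 16 genes rose and 1, spe-36, fell, with a median of 0.38, where 15.4% of all genes passed (7.33% upward). When the array labelled csa-1 NR replicate 4 was left out, 18 genes passed, and the share of all genes in that fit is not given here.

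**Figure D1:**
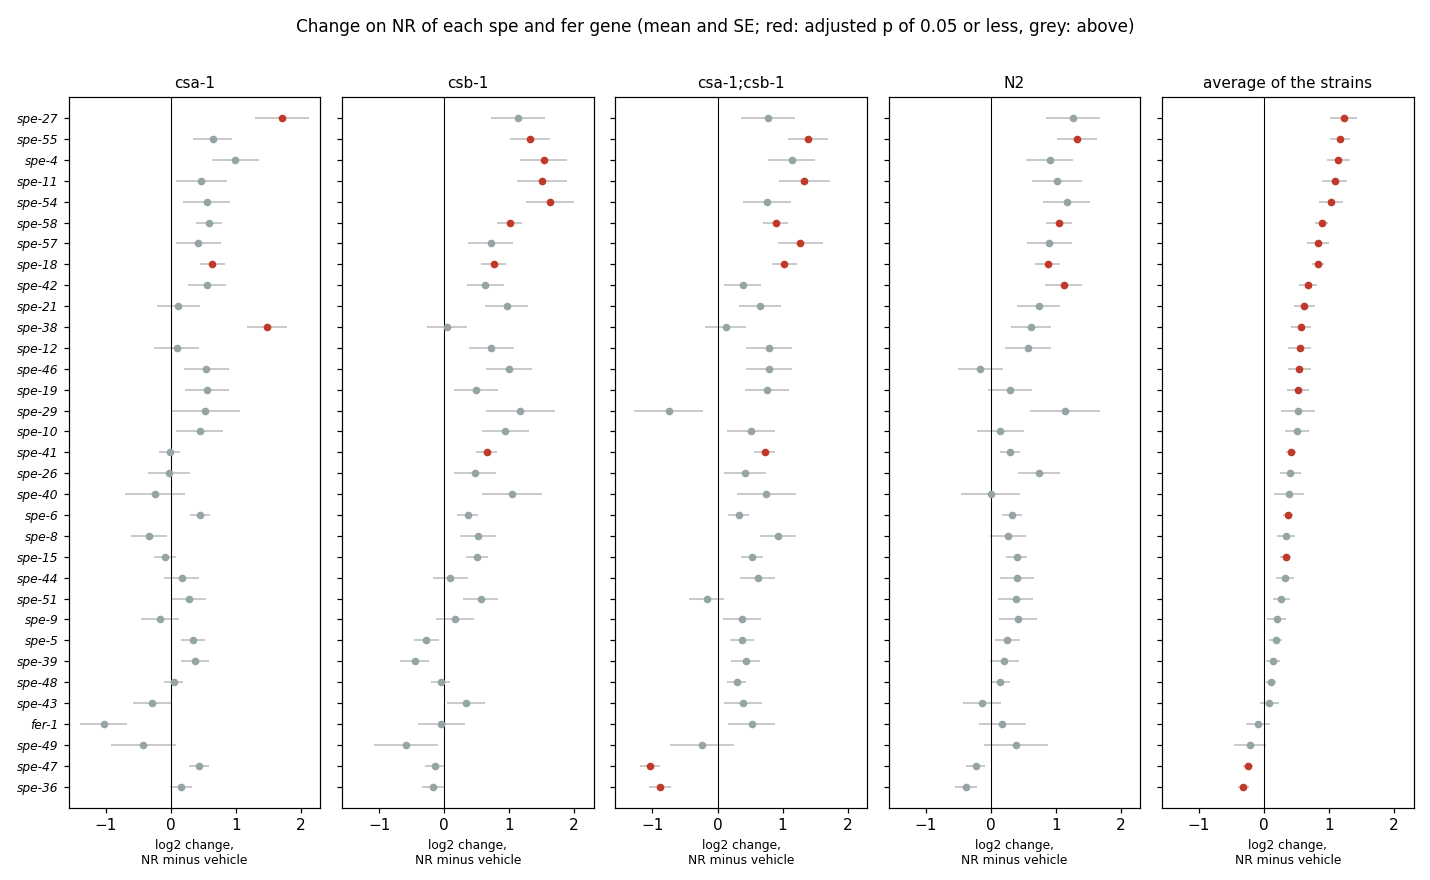
Log2 change (NR minus vehicle; point and standard error) of 33 of the 35 spe and fer genes in csa-1, csb-1, the double mutant, N2 and the average of the strains, with genes ordered by the average and adjusted p of 0.05 or less in red. Most points lie right of 0 in every panel, and spe-47 and spe-36, at the bottom, lie left of it in the double mutant; the N2 point of spe-42 rests on vehicle arrays that were not well above background.

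One member, spe-18, passed in each strain on its own. The gene is needed for the fibrous bodies and membranous organelles of the spermatocyte. Its Z-scores were 0.52, 0.62, 0.67 and 0.59 on csa-1 NR arrays, against 0.45, 0.34, 0.53 and 0.40 on csa-1 vehicle arrays, and 0.62, 0.59, 0.55 and 0.67 on csb-1 NR arrays, against 0.42, 0.42, 0.52 and 0.25 on csb-1 vehicle arrays. The double mutant had 0.80, 0.83, 0.80 and 0.78 on NR, against 0.39, 0.53, 0.60 and 0.58 on vehicle, and in N2 they were 0.70, 0.71, 0.71 and 0.73 on NR, against 0.51, 0.45, 0.41 and 0.55 on vehicle. Only in csa-1 did the arrays of the 2 treatments overlap. The averaged log2 change was 0.83 (standard error 0.096, limma adjusted p = 5.5e-07), and the log2 changes within strains were 0.64 in csa-1 (adjusted p = 0.049), 0.76 in csb-1 (0.019), 1.03 in the double mutant (0.0020) and 0.87 in N2 (0.015). It passed under all 40 alternatives of the averaged comparison, with log2 changes of 0.61 to 0.86. Its call in csa-1 passed under 8 of 17 alternatives, and was lost with the replicate block, with the deposited scores and when csa-1 NR replicate 4 was left out (0.65, adjusted p = 0.099).

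The other spermatocyte genes followed in part. Among the 12 members with roles in spermatocyte organelles, polarity or division, 6 rose and none fell, with a median averaged log2 change of 0.38. Of all genes, 8.51% passed upward in the averaged comparison. The presenilin spe-4, a membrane protein of the membranous organelle, had Z-scores of -0.13, -0.14, -0.27 and -0.15 on csb-1 NR arrays, against -0.50, -0.42, -0.43 and -0.95 on csb-1 vehicle arrays. On double mutant arrays it had 0.04, 0.07, 0.01 and 0.02 on NR, against -0.34, -0.26, -0.19 and -0.28 on vehicle. Its NR arrays lay above all vehicle arrays in these strains and in N2, and overlapped in csa-1. The averaged log2 change of spe-4 was 1.14 (standard error 0.18, limma adjusted p = 3.7e-05). The palmitoyltransferase gene spe-21 averaged 0.62 (adjusted p = 0.010), spe-6, a casein kinase of the spermatocyte, 0.37 (0.0016), and spe-15, a class VI myosin that sorts components into spermatids, 0.34 (0.0062). Without the 5 arrays of low spread spe-21 no longer passed (0.38, adjusted p = 0.11).

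Members of the same group that did not pass had smaller changes or wider errors. The brightest, spe-48, averaged 0.11 (adjusted p = 0.36). The ferlin gene fer-1, needed for fusion of the membranous organelles with the plasma membrane, averaged -0.09 (0.77). The second palmitoyltransferase gene, spe-10, averaged 0.51 (0.063), the kelch gene spe-26 0.40 (0.10), the vacuolar ATPase gene spe-5 0.18 (0.23) and the vesicle traffic gene spe-39 0.14 (0.43). The transcription factor spe-44, which turns on many sperm genes in spermatocytes, was well above background on all arrays, with Z-scores of 0.72, 0.75, 0.58 and 0.66 on double mutant NR arrays, against 0.37, 0.58, 0.57 and 0.52 on double mutant vehicle arrays. Its NR and vehicle arrays overlapped in all 4 strains, and its averaged log2 change was 0.32 (standard error 0.13, adjusted p = 0.11).

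**Figure D2:**
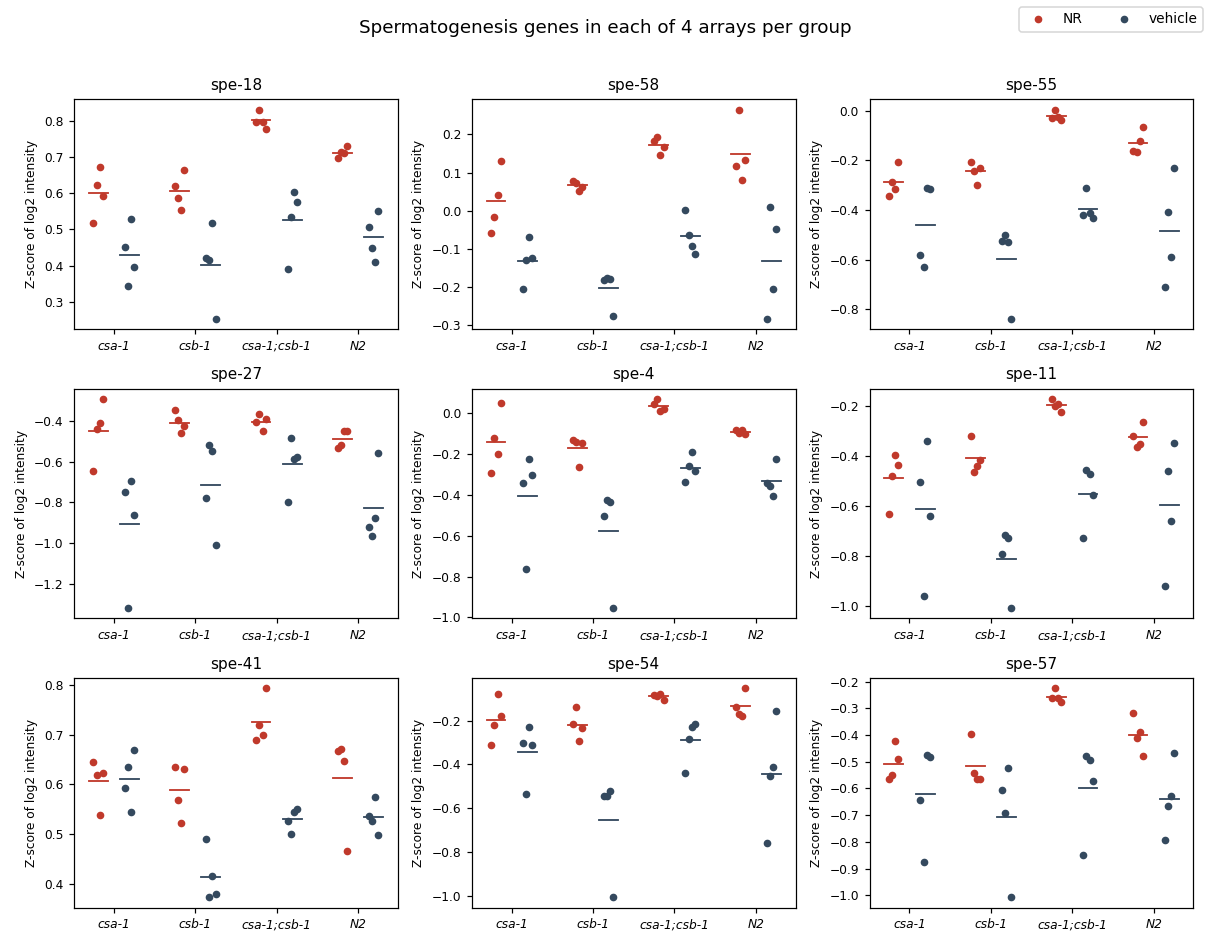
Z-score of log2 intensity on each array for 9 spe genes, with NR in red left of vehicle in dark blue, strains along the axis and bars at the means of 4 arrays. The NR arrays of spe-58 lie above the vehicle arrays in every strain, and single low vehicle arrays are seen for spe-27 in csa-1 at -1.32 and for spe-54 in csb-1 at -1.01.

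Of the 8 genes of sperm activation, 4 rose and 1, spe-47, fell in the averaged comparison, with a median of 0.52. Of all genes, 8.51% passed upward and 4.76% downward. The gene spe-27, one of the spe-8 group that relays the signal to activate hermaphrodite sperm, had the largest average of all members at 1.22 (standard error 0.21, adjusted p = 9.2e-05). Its Z-scores were -0.65, -0.44, -0.41 and -0.29 on csa-1 NR arrays, against -0.75, -1.32, -0.70 and -0.86 on csa-1 vehicle arrays, and the log2 change there was 1.71 (adjusted p = 0.014), or 1.52 (0.062) when csa-1 NR replicate 4 was left out. Its NR arrays lay above all vehicle arrays in each of the 4 strains, although on vehicle it was well above background on 2 csa-1, 2 csb-1, 3 double mutant and 1 N2 arrays. Without the 5 arrays of low spread its average was 0.84 (adjusted p = 0.00022). The spe-8 group members spe-12 and spe-19 averaged 0.55 and 0.53 (adjusted p = 0.037 for both), and spe-46 averaged 0.54 (0.036). These calls were lost under 16 of 40 alternatives for spe-12, 17 for spe-19 and 16 for spe-46. Those of spe-12, spe-19 and spe-46 were lost with arrays scaled to the 75th percentile and when csa-1 NR replicate 4 was left out, those of spe-12 and spe-46 also after quantile normalization, that of spe-46 after normexp correction, and that of spe-19 without the 5 arrays of low spread (0.28, adjusted p = 0.27). The non-receptor tyrosine kinase spe-8 averaged 0.34 (0.11) and spe-29 0.52 (0.21), both near background. spe-43 averaged 0.08 (0.77).

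Genes of sperm and egg contact were split. Of these 8, 3 rose and 1 fell in the averaged comparison, where 8.51% of all genes passed upward and 4.76% downward. The group median was 0.23. The brightest was spe-41, a TRP calcium channel of the sperm surface. Its Z-scores were 0.64, 0.57, 0.52 and 0.63 on csb-1 NR arrays, against 0.49, 0.37, 0.42 and 0.38 on csb-1 vehicle arrays, and 0.69, 0.72, 0.70 and 0.79 on double mutant NR arrays, against 0.53, 0.50, 0.55 and 0.55 on double mutant vehicle arrays. The treatments did not overlap in these 2 strains and overlapped in csa-1 and N2. spe-41 had log2 changes of 0.65 in csb-1 (adjusted p = 0.017) and 0.73 in the double mutant (0.0070), against -0.02 in csa-1 (0.96) and 0.30 in N2 (0.47), and averaged 0.41 (0.00052). The membrane protein genes spe-38 and spe-42 averaged 0.57 (0.014) and 0.67 (0.0015). Both calls were lost with arrays scaled to the 75th percentile, and that of spe-38 also after normexp correction. spe-38 was well above background on 17 of 32 arrays. Its mean Z-scores on NR and vehicle were close in csb-1 (-0.873 and -0.884) and in the double mutant (-0.711 and -0.744). spe-42 was well above background on 6 of 16 NR arrays and on 1 of 16 vehicle arrays, so its size is poorly measured. The EGF-repeat sperm surface gene spe-9 averaged 0.20 (0.40), spe-51 0.27 (0.21) and spe-49 -0.21 (0.61).

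The paternal factor spe-11, which sperm bring into the egg for the first events of the embryo, also rose. Its Z-scores were -0.32, -0.46, -0.44 and -0.41 on csb-1 NR arrays, against -0.79, -0.72, -0.73 and -1.01 on csb-1 vehicle arrays, and -0.17, -0.20, -0.19 and -0.22 on double mutant NR arrays, against -0.73, -0.46, -0.47 and -0.56 on double mutant vehicle arrays. No arrays overlapped in either strain. The value of -1.01 is the floor of csb-1 vehicle replicate 4, and spe-11 was well above background on 2 of 4 csb-1 vehicle arrays. Its log2 change was 1.51 in csb-1 (adjusted p = 0.022), 1.34 in the double mutant (0.042) and 1.08 on average (standard error 0.19, 0.00019). The averaged call passed under all 40 alternatives. The call in the double mutant was lost under 11 of 17, among them the replicate block, quantile normalization and leaving out any one of the 8 arrays (adjusted p up to 0.17). That in csb-1 was lost under 3, among them leaving out csb-1 vehicle replicate 4.

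Of the 5 members to which no role was assigned here, 4 rose in the averaged comparison, where 8.51% of all genes passed upward. The group median was 0.88. Z-scores of spe-58 were -0.06, -0.01, 0.04 and 0.13 on csa-1 NR arrays, against -0.20, -0.13, -0.07 and -0.12 on csa-1 vehicle arrays, and 0.08, 0.07, 0.05 and 0.06 on csb-1 NR arrays, against -0.18, -0.18, -0.18 and -0.27 on csb-1 vehicle arrays. In the double mutant they were 0.18, 0.19, 0.15 and 0.17 on NR, against 0.00, -0.06, -0.09 and -0.11 on vehicle, and in N2 they were 0.12, 0.27, 0.08 and 0.13 on NR, against -0.28, 0.01, -0.20 and -0.05 on vehicle. With spe-27 it was one of 2 members whose NR arrays lay above all vehicle arrays in every strain. spe-58 averaged 0.88 (standard error 0.098, adjusted p = 3.0e-07). spe-55 averaged 1.17 (0.15, 2.4e-06), spe-54 1.03 (0.18, 0.00017) and spe-57 0.83 (0.17, 0.0011), and spe-57 stood at 0.49 (0.0022) without the 5 arrays of low spread. spe-40 averaged 0.39 (0.29).

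The direction was shared more widely than the test calls. The NR mean was above the vehicle mean in all 4 strains for 17 of the 35 genes, where 13.1% of all genes had this pattern, in 3 strains for 12, in 2 for 3 and in 1 for 3. Every NR array lay above every vehicle array for 5 genes in csa-1 (6.09% of all genes), 15 in csb-1 (10.9%), 20 in the double mutant (9.59%) and 6 in N2 (3.92%). Besides spe-27 and spe-58, the genes spe-18, spe-4 and spe-55 were separated in 3 strains, all but csa-1.

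Within single strains fewer genes passed. In csa-1, the median log2 change was 0.37 and 3 genes passed the adjusted p, all upward, where 5.31% of all genes did (3.75% upward): spe-18, spe-27 and spe-38. None met the criteria of the methods (2.2% of all genes did), and 10 of 35 had an unadjusted limma p under 0.05, against 20.5% of all genes. For spe-38, a membrane protein gene for sperm and egg contact, Z-scores were -0.61, -0.83, -0.80 and -0.76 on csa-1 NR arrays, against -1.02, -1.37, -1.15 and -1.04 on csa-1 vehicle arrays. It was not well above background on any csa-1 vehicle array and was well above it on 2 NR arrays (adjusted p = 0.0050). Only a rough bound can be given: the NR mean was 1.24-fold above the lowest signal well above background. The bound is rough because this mean includes NR arrays that were not well above background. fer-1 was well above background on no csa-1 NR array and on 3 csa-1 vehicle arrays. It too has only a rough bound, about 1.38-fold lower on NR, and it did not pass (adjusted p = 0.093). The count of 3 became 1 when csa-1 vehicle replicate 2 was left out, 1 when the array with the contrary label (csa-1 NR replicate 4) was, and 6 without the 5 arrays of low spread, where 11.1% of all genes passed.

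In csb-1, the median was 0.56 and 8 genes rose by the adjusted p, where 4.66% of all genes passed (3.42% upward), among them spe-54 (log2 change 1.63, adjusted p = 0.0082), spe-4 (1.53, 0.012), spe-11, spe-55 (1.32, 0.010), spe-58 (1.01, 0.0027), spe-18 and spe-41. None met the criteria of the methods (1.5% of all genes did), and 22 of 35 had an unadjusted limma p under 0.05, against 20.1%. Z-scores of spe-54 were -0.21, -0.14, -0.29 and -0.23 on csb-1 NR arrays, against -0.54, -0.55, -0.52 and -1.01 on csb-1 vehicle arrays, where the last value is the floor of replicate 4. Without csb-1 vehicle replicate 4, spe-58 alone passed (0.92, adjusted p = 0.018), and spe-54 stood at 1.19 (0.055) and spe-4 at 1.06 (0.074). Without all 5 arrays of low spread 9 passed, among them the same 8, where 7.35% of all genes did. The call of spe-41 was lost under 6 of 17 alternatives, among them quantile normalization and normexp correction. The most negative value was that of spe-49 (adjusted p = 0.52), which was well above background on no csb-1 NR array and on 1 csb-1 vehicle array and has no usable fold, and the next was that of spe-39, -0.45 (0.25).

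The double mutant had a median of 0.53 and 9 genes passed, 7 upward and 2 downward, where 4.92% of all genes did (2.22% upward and 2.7% downward). Among those that rose were spe-55 (1.39, adjusted p = 0.0061), spe-11, spe-57 (1.27, 0.028), spe-18, spe-58 (0.89, 0.0065) and spe-41. spe-47 and spe-36 fell. Of these, 3 genes, spe-18, spe-58 and spe-47, met the criteria of the methods, where 2.28% of all genes did, and 19 of 35 had an unadjusted limma p under 0.05, against 16.9%. Z-scores of spe-55 were -0.03, 0.00, -0.03 and -0.04 on double mutant NR arrays, against -0.42, -0.31, -0.41 and -0.43 on double mutant vehicle arrays, a gap wider than the spread within either group. The call of spe-57 was lost under 7 of 17 alternatives, among them quantile normalization and leaving out any one NR array.

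In N2, the median was 0.40 and 4 genes rose, where 2.1% of all genes passed (1.54% upward): spe-55 (1.33, adjusted p = 0.020), spe-58 (1.05, 0.0048), spe-18 and spe-42. Of these, 2 genes, spe-18 and spe-58, met the criteria of the methods, where 0.871% of all genes did, and 16 of 35 had an unadjusted limma p under 0.05, against 12.7%. No fold is given for spe-42 (adjusted p = 0.036), since it was not well above background on any N2 vehicle array and on 1 N2 NR array. Its call was lost under 10 of 17 alternatives, among them leaving out the 5 arrays of low spread (adjusted p = 0.11). The most negative change was that of spe-36, -0.38 (adjusted p = 0.34). With the N2 arrays fitted alone none of the 35 passed, and 0% of all genes did, and without N2 NR replicate 4 only 1 did.

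Against the direction of most members, spe-47 and spe-36 fell on NR in the double mutant. spe-47, a gene of the sperm activation pathway, had Z-scores of 0.26, 0.24, 0.22 and 0.33 on double mutant NR arrays, against 0.60, 0.57, 0.47 and 0.52 on double mutant vehicle arrays, a log2 change of -1.04 (standard error 0.15, limma adjusted p = 0.00015). spe-36, a secreted sperm protein needed at fertilization, had -0.17, -0.11, -0.12 and -0.12 on NR, against 0.17, 0.14, 0.07 and 0.06 on vehicle, a log2 change of -0.89 (0.17, 0.0024). The treatments did not overlap for either gene, and both passed under all 17 alternatives run.

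In csa-1, spe-47 lay the other way. It had Z-scores of 0.47, 0.41, 0.32 and 0.39 on csa-1 NR arrays, against 0.29, 0.26, 0.27 and 0.32 on csa-1 vehicle arrays, and a log2 change of 0.43 (adjusted p = 0.092). Every csa-1 NR array was above every csa-1 vehicle array. spe-36 changed by 0.16 in csa-1 (0.66), with overlapping arrays. The change on NR was then compared between strains as an interaction in the same model, chosen because the arrays of spe-47 moved in opposite directions. The double mutant's change minus that of csa-1 was -1.47 for spe-47 (standard error 0.21, adjusted p = 0.00043) and -1.05 for spe-36 (0.24, 0.014, or 0.054 after quantile normalization). Of the 35 members 3 passed, all downward, where 3.27% of all genes did (2.65% downward). Against the change in csb-1, the differences were -0.89 for spe-47 (adjusted p = 0.074) and -0.72 for spe-36 (0.22), and no member passed (0.102% of all genes did). The unadjusted p was under 0.05 for 6 of the 35 members and for 2993 of the 25497 genes.

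**Figure D3:**
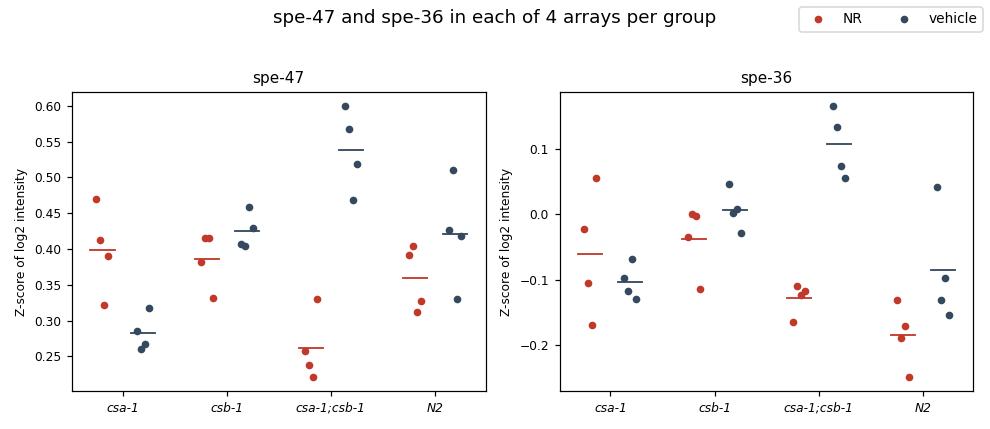
Z-score of log2 intensity on each array for spe-47 and spe-36, with NR in red left of vehicle in dark blue, strains along the axis and bars at the means of 4 arrays. In the double mutant the NR arrays lie below the vehicle arrays for both genes (0.22 to 0.33 on NR, against 0.47 to 0.60 on vehicle for spe-47), and in csa-1 the order is the reverse for spe-47.

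The planned tests of a difference in the NR response between a mutant and N2 gave no member. The counts were 0 of 35 for csa-1, csb-1 and the double mutant, where 0.0392%, 0.0784% and 0.129% of all genes passed in limma. In this order, 4, 2 and 4 of the 35 had an unadjusted p under 0.05, against 8.9%, 7.02% and 6.56% of all genes. The smallest adjusted p among members was 0.15, for spe-47 in the double mutant.

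The NR changes of other sperm genes were set beside these with lists taken from known biology. Of 42 measured genes of sperm structure, mostly the major sperm proteins that form the crawling skeleton, 39 rose and 1 fell in the averaged comparison. Their median was 0.99, and 8.51% of all genes passed upward and 4.76% downward. Major sperm protein genes are near-identical copies whose probes can share signal, so they are not 42 separate readings. The median was 0.79 in csa-1, 1.34 in csb-1, 1.14 in the double mutant and 0.68 in N2. Their mean Z-score ran from 0.995 to 1.038 on csb-1 NR arrays, against 0.652 to 0.712 on csb-1 vehicle arrays, and from 1.123 to 1.146 on double mutant NR arrays, against 0.818 to 0.882 on double mutant vehicle arrays. In N2 it ran from 1.090 to 1.139 on NR arrays, against 0.592 to 1.047 on vehicle arrays, with replicate 3 as the lowest. In csa-1 it ran from 0.889 to 1.021 on NR arrays, against 0.585 to 0.940 on vehicle arrays, and overlapped.

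The one gene of this list that fell was swm-1, a protease inhibitor that holds back sperm activation (averaged log2 change -0.45). swm-1, try-5 and snf-10 stand both in this list and among the regulators that follow, so not every gene of the list is structural. Of 23 measured genes that regulate sperm fate and activation, 5 rose and 1, again swm-1, fell in the averaged comparison. Of all genes, 8.51% passed upward there and 4.76% downward. The 5 were htas-1, a sperm histone (1.36), the sperm phosphatases gsp-4 (1.29) and gsp-3 (1.12), which also stand in the structural list, fog-3, which commits germ cells to sperm (0.86), and cpb-2 (0.48). The sex determination genes fog-1, fog-2 and fem-3 had 0.22, 0.14 and 0.02 and did not pass. In the averaged comparison, markers of other cell types had medians nearer 0 or below it: none of 14 oocyte genes (median -0.06), 12 general germline genes (-0.04), 7 male neuron genes (-0.17) or 6 neuron genes (0.09) passed, and 1 gene fell and none rose in each of the intestine, hypodermis and body wall muscle lists. Within strains some of these lists moved further. In csa-1 the 6 body wall muscle genes had a median of -0.87 on NR, with 0 of 6 higher and 2 falling by the test, beside 0.37 for the spe and fer genes. In csb-1 the 6 neuron genes had a median of 0.50, with 6 of 6 higher and 0 passing, beside 0.56. Their part in the results of these strains was not tested. In the double mutant, germline genes other than sperm genes also lay higher on NR: the mean Z-score of the 12 germline genes ran from 1.428 to 1.475 on NR arrays, against 1.352 to 1.391 on vehicle arrays, with a median log2 change of 0.33 and 1 of 12 rising by the test. The 14 oocyte genes there had a median of 0.36, with none passing. In the other strains these medians were between -0.43 and -0.03, and the part of germline content in the double mutant's result was not tested.

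**Figure D4:**
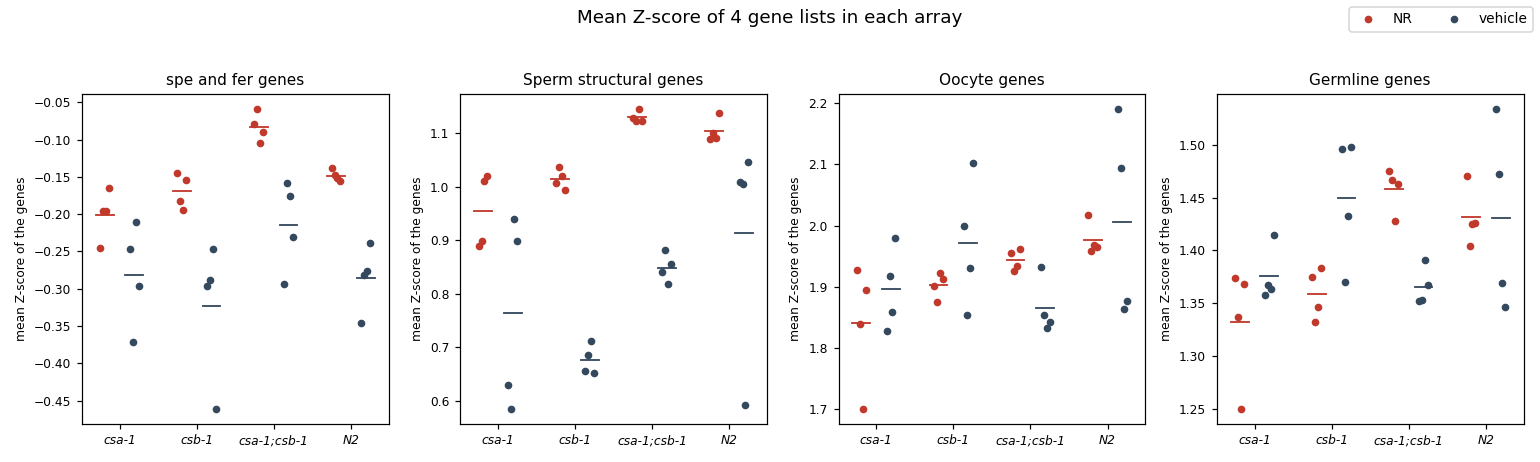
Mean Z-score per array of the 35 spe and fer genes, 42 genes of sperm structure, 14 oocyte genes and 12 germline genes, with NR in red left of vehicle in dark blue and bars at the means of 4 arrays. NR arrays of the spe and fer genes ran from -0.246 to -0.164 in csa-1, -0.195 to -0.145 in csb-1, -0.104 to -0.059 in the double mutant and -0.155 to -0.138 in N2, against -0.371 to -0.211, -0.461 to -0.247, -0.293 to -0.158 and -0.346 to -0.239 on vehicle, and the germline list is separated in the double mutant alone, at 1.428 to 1.475 on NR, against 1.352 to 1.391 on vehicle.

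The members followed each other across the 32 arrays to different degrees. Each was correlated with the mean of the other sperm members, without spe-5, spe-15 and spe-39, which are also used outside sperm. Pearson r was 0.92 for spe-18, 0.92 for spe-4 and 0.92 for spe-11. It was -0.34 for spe-47, -0.32 for spe-36, -0.01 for spe-39 and 0.05 for spe-49. Values were also low for spe-29 (0.17), fer-1 (0.28), spe-43 (0.28) and spe-40 (0.33). Outside the family, genes were correlated with the mean of all these sperm members. The closest were C08F11.10 (0.967), R148.7 (0.965), clec-123 (0.960), moa-1 (0.959) and ZK1010.5 (0.954). These values describe 32 arrays that share treatment groups, slides and array quality.

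Without NR, few of these genes passed between a mutant and N2. The median log2 change of the 35 genes was 0.00 in csa-1, -0.09 in csb-1 and 0.21 in the double mutant, and no member met the criteria of the methods, where 0.667%, 0.651% and 0.686% of all genes did. With the adjusted p, 1 gene passed in csa-1 (1.13% of all genes), 0 in csb-1 (0.91%) and 2, both upward, in the double mutant (1.73%, of which 1.35% upward). By direction alone, 18 of the 35 were higher in csa-1, 16 in csb-1 and 28 in the double mutant than in N2, where 52%, 52.3% and 49.7% of all genes were. Members with an unadjusted limma p under 0.05 numbered 9, 7 and 5 of 35, against 27.8%, 10.3% and 19.6% of all genes. In csa-1, spe-38 was lower than in N2 (limma adjusted p = 0.045). No fold is given, since it was well above background on no csa-1 vehicle array and on 1 N2 vehicle array. On N2 vehicle replicate 1 it lay at the floor. The call was lost under 10 of 17 alternatives, among them leaving out the 5 arrays of low spread (0.74).

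In the double mutant, spe-36, which fell there on NR, was higher than in N2 on vehicle. Its Z-scores were 0.17, 0.14, 0.07 and 0.06 on double mutant vehicle arrays, against 0.04, -0.13, -0.10 and -0.15 on N2 vehicle arrays, without overlap, at a log2 change of 0.72 (standard error 0.17, limma adjusted p = 0.027). This call was lost under 9 of 17 alternatives: with arrays scaled to the 75th percentile the change was 0.44 (0.29), after quantile normalization 0.48 (0.30), and without the 5 arrays of low spread 0.80 (0.10). The comparison with N2 and the comparison with NR share the double mutant vehicle arrays, so they are not separate evidence. fer-1 had positive values in each mutant, none of which passed (adjusted p = 0.13 in csa-1, 0.62 in csb-1 and 0.14 in the double mutant). Their size is poorly measured, since on N2 vehicle fer-1 was well above background on 1 of 4 arrays and lay at the floor on replicates 1 and 2. spe-46 had log2 changes of -0.94 in csa-1 (0.095), -1.25 in csb-1 (0.088) and -0.61 in the double mutant (0.32), none of which passed, and these values belong to the brightest of its 3 probes. The other 2 probes gave -0.11 and 0.06 in csa-1, -0.41 and -0.18 in csb-1, and 0.30 and 0.26 in the double mutant. On the brightest probe, Z-scores of 0.56, 0.01, -0.04 and 0.04 on N2 vehicle arrays include 1 array, replicate 1, far above the other 3.

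**Figure D5:**
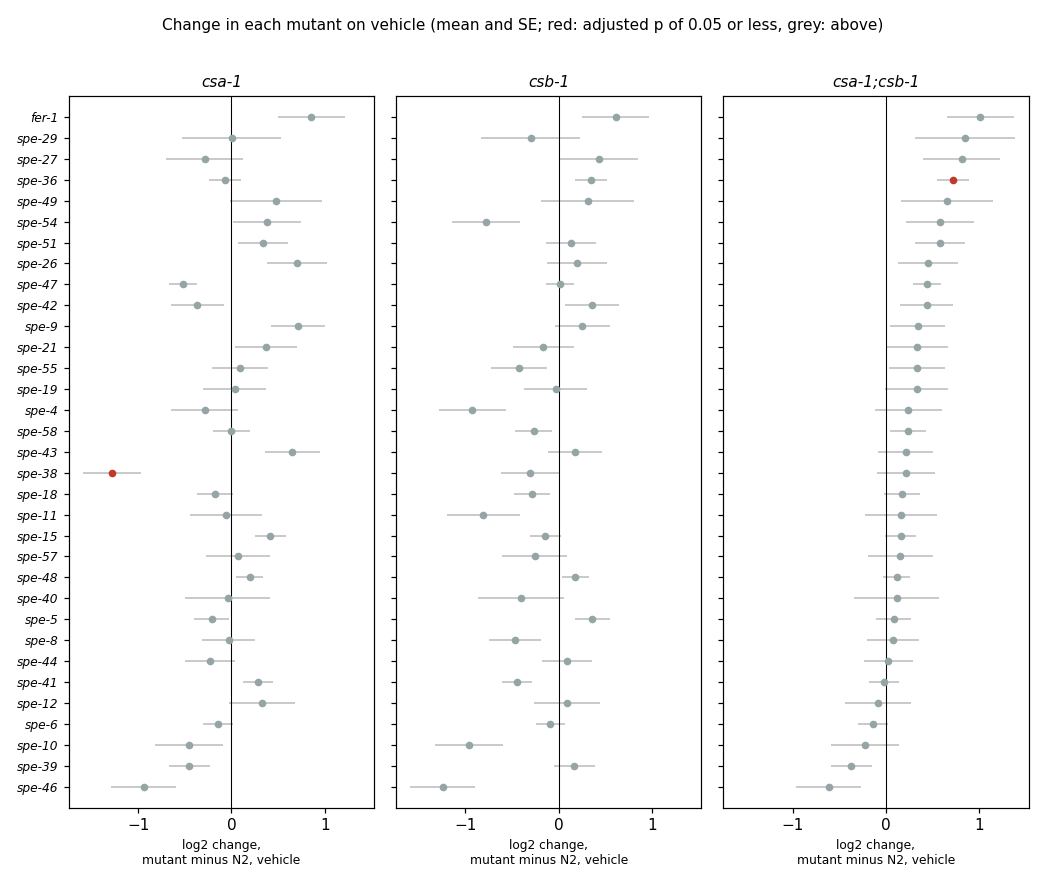
Log2 change (mutant minus N2, both on vehicle; point and standard error) of 33 of the 35 spe and fer genes in csa-1, csb-1 and the double mutant, with genes ordered by the double mutant and adjusted p of 0.05 or less in red. The red points are spe-38 in csa-1 (no csa-1 vehicle array well above background) and spe-36 (0.72) in the double mutant.

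On NR, again few genes passed between a mutant and N2. The median log2 change was -0.24 in csa-1, where no gene passed the adjusted p (0.6% of all genes did, and 7 of 35 members had an unadjusted limma p under 0.05, against 13.4%). It was -0.09 in csb-1, where 1 gene passed upward (5.25% of all genes did, 3.71% upward), and 0.25 in the double mutant, where 1 gene passed upward (1.99%, of which 0.859% upward). None met the criteria of the methods, where 0.361%, 2.92% and 1.31% of all genes did, and 6 members in csb-1 and 7 in the double mutant had an unadjusted limma p under 0.05, against 16.6% and 14% of all genes. By direction alone, 9 of the 35 were higher in csa-1, 12 in csb-1 and 29 in the double mutant than in N2, where 49.1%, 46.4% and 50.9% of all genes were. In the double mutant the gene was fer-1, with -0.44, -0.42, -0.57 and -0.39 on double mutant NR arrays, against -0.75, -1.04, -0.76 and -0.73 on N2 NR arrays, without overlap (1.36, standard error 0.36, adjusted p = 0.043). Only 1 of these N2 NR arrays was well above background, so the size is poorly measured, and the call was lost under 10 of 16 alternatives, among them quantile normalization, normexp correction (0.33, adjusted p = 0.058) and leaving out any one N2 NR array. The sum of the single mutant changes on vehicle was compared with the double mutant's change as an interaction, and no member passed (0.0196% of all genes did). The unadjusted limma p was under 0.05 for 7 of the 35 members, against 11.6% of all genes.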

How the data were processed

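Total RNA of whole worms was labelled with Cy3 and hybridised to Agilent C. elegans V2 arrays. The authors scanned them with Feature Extraction 11.5.1.1, whose deposited intensity values are background-subtracted, detrended and raised to a floor. The deposited score table, made by the authors in DIANE, equals the Z-score of the log signal over all spots to within 0.00503. From the deposited processed intensity of 43314 probes (289 left out for outlier flags, 0 saturated), Z-scores were computed per array over gene spots. Of 28476 target names, 22730 were matched to RefSeq names (WBcel235), and the brightest probe stood for a gene. limma 3.58.1 (R 4.3.3; lmFit and eBayes, no replicate block) was fitted to all 32 arrays with 1 mean per group, and p-values were adjusted over 25497 genes, also for the interactions. The fit was checked on simulated data. Named with values were members called in any comparison, the brightest of each role, the extremes, and members with an outlying array. Others were named after their values were seen. Members and lists were chosen with earlier results of these data known. Alternatives were other scalings and background correction, the score table, a filter on dim probes, the mean of probes, smaller fits, the replicate block, and leaving out arrays. Sequences were not used here. All counts and medians cover the 35 members, and 2 of them are not reported one by one here.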

Additional observations from a re-analysis of the deposited data

Results flagged for a closer look

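Arrays far from the other 3 of their group (Dixon's test at the 95% level) were found in 17 of 272 sets of 4 arrays, 13 low and 4 high. The sets were those of 33 genes and of the mean of the members in the 8 groups. Chance flags about 1 in 20 sets, but genes share arrays, so the sets are not independent. On csb-1 vehicle replicate 4 there were 6: spe-4 at a Z-score of -0.95, spe-9 at -0.91, spe-55 at -0.84, spe-58 at -0.27, and spe-54 and spe-43 at -1.01, which is the floor of that array. Double mutant vehicle replicate 1 had 2, both low: spe-21 at -0.85 and spe-19 at -0.95. N2 vehicle replicate 1 had 3: spe-26 low at -0.92, and spe-29 and spe-46 high at -0.53 and 0.56. These 3 arrays are among the 5 of low spread, and the part of array quality in the low values was not tested.

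The others were single values. spe-8 was high on N2 vehicle replicate 2 (-0.64), fer-1 low on N2 NR replicate 2 (-1.04) and spe-41 low on N2 NR replicate 4 (0.47). In csb-1, spe-29 was low on vehicle replicate 3 (-1.28), spe-4 low on NR replicate 3 (-0.26) and spe-57 high on NR replicate 1 (-0.40).

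For spe-47 the change on NR was compared between the double mutant and csa-1 because its arrays were seen to move in opposite directions there, so the test is not independent of that observation. The double mutant's change minus that of csa-1 was -1.47, past the adjusted p, and every NR array lay below every vehicle array in the double mutant and above every vehicle array in csa-1. The differences from the changes in csb-1 (adjusted p = 0.074) and N2 (0.15) did not pass.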

How the results depend on the processing

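No direction of a called gene was reversed under any alternative. Of the 20 members passing in the averaged NR comparison, 12 passed under all 40 alternatives, 11 of them upward. With the adjusted p in place of the methods' criteria the counts were 20 in the averaged comparison, 3 in csa-1, 8 in csb-1, 9 in the double mutant and 4 in N2 on NR against vehicle, and 1 in csa-1 and 2 in the double mutant against N2 on vehicle, and 1 in csb-1 and 1 in the double mutant against N2 on NR. After normexp correction the median on NR was 0.13 averaged, 0.15 in csa-1, 0.16 in csb-1, 0.20 in the double mutant and 0.17 in N2, with 1 gene called in csa-1, 1 in csb-1 and 1 in N2, 14 passing the adjusted p in the double mutant, a double mutant median of -0.04 on vehicle, and 1 interaction against csb-1. With arrays scaled to their 75th percentile the median of all genes was -0.11 in the averaged comparison and 12 members rose and 3 fell (20.3% of all genes passed, 6% upward), with 1 called averaged, 1 in csb-1 on vehicle and 0 in N2 on NR (2 by the adjusted p), double mutant medians against N2 of -0.10 on vehicle and 0.02 on NR, and interactions of 5 against csa-1 and 1 against csb-1. Quantile normalization gave 5 by the adjusted p in csa-1, 1 called averaged and 1 interaction against csb-1. With only the compared groups fitted, the adjusted p gave 0 in csa-1, 3 in csb-1, 15 in the double mutant and 0 in N2 (0 called), where 0.345%, 4%, 10.3% and 0% of all genes passed, and 2 interactions against csb-1. The mean of probes gave 5 called in the double mutant and 1 averaged. Without the 5 arrays of low spread there were 6 by the adjusted p in csa-1, 1 called averaged, and interactions of 6 against csa-1 and 2 against csb-1. Some counts here, such as those after normexp correction and quantile normalization, stand without the share of all genes under that setting. They do not show whether the members moved more than all genes. The cause of these shifts was not tested.

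Replicate numbers did not clearly pair the arrays. Across groups, 34 of 112 same-number pairs correlated above 0.1 (median 0.011), against 86 of 336 other-number pairs (median -0.001). With the replicate block 21 genes passed in the averaged comparison (median 0.41). The share of all genes is not given beside this count or beside those with an array left out.

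Leaving out each array in turn gave 17 to 21 passing averaged (medians 0.40 to 0.46, 1 to 2 called), and by the adjusted p 1 to 4 in csa-1, 1 to 9 in csb-1, 6 to 8 in the double mutant and 1 to 6 in N2. Medians on NR ran 0.21 to 0.40, 0.41 to 0.65, 0.45 to 0.69 and 0.35 to 0.52 in this order of strains, with 0 to 0, 0 to 1, 3 to 4 and 1 to 2 called. Against N2 on vehicle they ran -0.12 to 0.16 in csa-1, -0.15 to 0.01 in csb-1 and 0.07 to 0.36 in the double mutant, with 0 to 1, 0 to 1 and 0 to 0 called, and on NR -0.26 to -0.13, -0.16 to -0.06 and 0.19 to 0.31, with 0 called. The low counts of 1 came without csa-1 vehicle replicate 2 or the array labelled csa-1 NR replicate 4, csb-1 vehicle replicate 4, and N2 NR replicate 4. Without N2 vehicle replicate 3, 1 gene was called in csa-1 and in csb-1 on vehicle and 3 passed the csa-1 by csb-1 interaction (0 to 3); the other interactions stayed at 3 against csa-1 and 0 elsewhere. Dim probes limit these data: 10 of 35 members were well above background on every array.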
